A study of Mus musculus with 8 samples.

Results

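Expression of 10 genes of 2 developmental signaling pathways was followed across mouse lungs with and without an induced transgene for the NF-κB subunit p52 and with and without lipopolysaccharide (LPS), the bacterial cell wall component used to inflame the lung. The Hedgehog genes were Hhip, Ptch1, Smo, Gli1 and Gli2, and the Wnt feedback genes were Znrf3, Rnf43, Axin2, Lgr5 and Lgr6. All 10 were found on the array, each with 1 probe set, among 18820 genes that had a probe set with a single gene symbol. Hhip and Znrf3 were selected on measured values, since both stood at the cut-off of the study in the p52 comparison of these arrays, and the other genes were listed for their place in the same pathways. The p52 differences of the 10 genes are therefore given as a description without a test. The LPS comparison and the interaction of p52 and LPS are other contrasts than the one that selected Hhip and Znrf3, but all 10 genes were listed with earlier results of these arrays known.

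Whole lung RNA of FVB mice was read on 8 arrays, each with the pooled RNA of 3 mice. CCSP-p52 mice express FLAG-tagged p52 in airway epithelium from a doxycycline (dox) inducible transgene, for which the club cell secretory protein promoter (CCSP) sets the cell type. They descend from separate founder lines. WT mice were littermates without the transgenes. All mice, controls included, received dox at 2 g/L with 2% sucrose in drinking water for 1 week, were 8 to 12 weeks old and were of both sexes. The 4 groups were WT dox, CCSP-p52 dox, WT LPS and CCSP-p52 LPS, with 2 pools (6 mice) each, and LPS was given into the trachea 48 hours before the lungs were taken. The paper calls the other groups dox only and describes no instillation of vehicle for them. Effects of LPS and of the instillation can therefore not be told apart. Because RNA was pooled, the error given is that between pools.

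Hedgehog ligands bind Ptch1, which releases Smo and lets Gli transcription factors enter the nucleus, and Hhip and Ptch1 are themselves induced by the pathway and hold it back. In the adult lung, the ligand is made by epithelium and the response is carried mainly by mesenchymal cells. Wnt ligands bind Frizzled and Lrp receptors and stabilize β-catenin. Axin2, Znrf3 and Rnf43 are induced by β-catenin and lower the signal, and R-spondins, which bind Lgr receptors, block Znrf3 and Rnf43. Both pathways are known from branching of the embryonic lung and from repair of the adult alveolus.

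The arrays carried the markers of lung. Medians of the 8 arrays lay between 7.48 and 7.54 on the log2 scale, and the correlation between both pools of a group was 0.994, 0.993, 0.987 and 0.981 for WT dox, CCSP-p52 dox, WT LPS and CCSP-p52 LPS. The mean of 8 alveolar type II cell markers was between 11.7 and 12.5 in all pools. Of the pools, WT LPS pool 2 stood apart in 8 squamous and basal epithelium markers, with a mean log2 value of 10.39 against 6.38 to 6.63 in the other 7 pools, and in 8 skeletal muscle markers, with 9.54 against 7.09 to 7.53. CCSP-p52 LPS pool 2 stood apart from the other LPS pools in 7 alveolar fibroblast markers, at 11.18 against 10.17 to 10.52, and in 5 mesothelium markers, at 10.28 against 9.34 to 9.40. Values without these pools are given beside the results they move, and the part of the other tissue in each result was not tested.

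RefSeq promoter windows of 300 bases (build GRCm38.p6) were at hand for 7 of the 10 genes, 8 windows in all with both starts of Rnf43. The windows of Hhip and Ptch1 were rich in CpG, with 30 and 47 CpG in the 300 bases against a median of 7 over 32851 windows, and that of the first Rnf43 start had 10. These 3 are shown because all fell with LPS while their windows differ widely in CpG. The 250 bases before the start are printed 5′ to 3′ in the direction of the gene, with each CpG in capitals, from chr8:80058009-80058258 (minus strand), chr13:63565736-63565985 (minus strand) and chr11:87662837-87663086 (plus strand).
Hhip: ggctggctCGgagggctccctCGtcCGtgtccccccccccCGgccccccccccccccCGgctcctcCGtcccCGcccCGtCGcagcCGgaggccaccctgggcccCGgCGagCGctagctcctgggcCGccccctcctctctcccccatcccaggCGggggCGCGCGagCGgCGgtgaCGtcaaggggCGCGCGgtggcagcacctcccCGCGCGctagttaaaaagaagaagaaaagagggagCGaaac
Ptch1: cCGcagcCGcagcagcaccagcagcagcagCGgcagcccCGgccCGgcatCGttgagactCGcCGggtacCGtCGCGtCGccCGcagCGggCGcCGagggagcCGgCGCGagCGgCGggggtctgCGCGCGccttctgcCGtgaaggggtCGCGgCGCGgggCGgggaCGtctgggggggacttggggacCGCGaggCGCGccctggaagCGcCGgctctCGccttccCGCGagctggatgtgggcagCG
Rnf43: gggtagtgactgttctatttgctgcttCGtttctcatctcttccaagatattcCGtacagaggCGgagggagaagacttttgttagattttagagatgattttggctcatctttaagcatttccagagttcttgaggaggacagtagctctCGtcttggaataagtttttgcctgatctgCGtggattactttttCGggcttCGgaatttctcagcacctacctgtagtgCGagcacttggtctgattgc

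On both strands of the 8 windows, the Gli site GACCACCCA was found in 0, against 0.253% of all windows, and its core CACCCA, which lies within it, in 0 against 22.2%. The Tcf/Lef site CTTTGAT was found in 0, against 3.73%, and its core CTTTG, which lies within that site, in 2 against 53.9%: in the Ptch1 window once and in the Smo window at 2 positions. The κB consensus bound by NF-κB dimers was found in 0, against 4.51%. These counts describe the letters in the windows. The windows of Ptch1, Gli2 and Axin2 lie inside genes whose 5′ ends are at 63573460, 119054405 and 108917828, and those ends were not searched.

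LPS lowered most of the 10 genes. In the additive model of p52 and LPS, 8 of the 10 fell and none rose (limma, adjusted p under 0.05), where 20.2% of all 21218 probe sets fell and 13.5% rose. The median logFC of the 10 genes was -0.58, against 0.01 over all probe sets. Ptch1, Smo, Znrf3, Rnf43, Axin2 and Lgr6 had all 4 LPS pools below all 4 pools without LPS, a separation found in 21.2% of all probe sets. In a bulk sample, fewer cells of a type and less RNA per cell cannot be told apart. Neutrophil markers rose with LPS (7 of 7, median logFC 3.75), while 6 of 7 alveolar fibroblast markers (median -1.27), 5 of 6 endothelial markers (-0.80 over the list) and 5 of 6 alveolar type I cell markers (-0.62) fell. Other mesenchymal lists fell in part, with 3 of 6 adventitial fibroblast markers (-0.34) and 3 of 7 smooth muscle and myofibroblast markers (-0.58). Of the mesothelium markers 3 of 5 rose (0.39), and of the mitotic markers 5 of 5 (1.43). The part of this shift in cell types in the fall of the 10 genes was not tested.

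**Figure D1:**
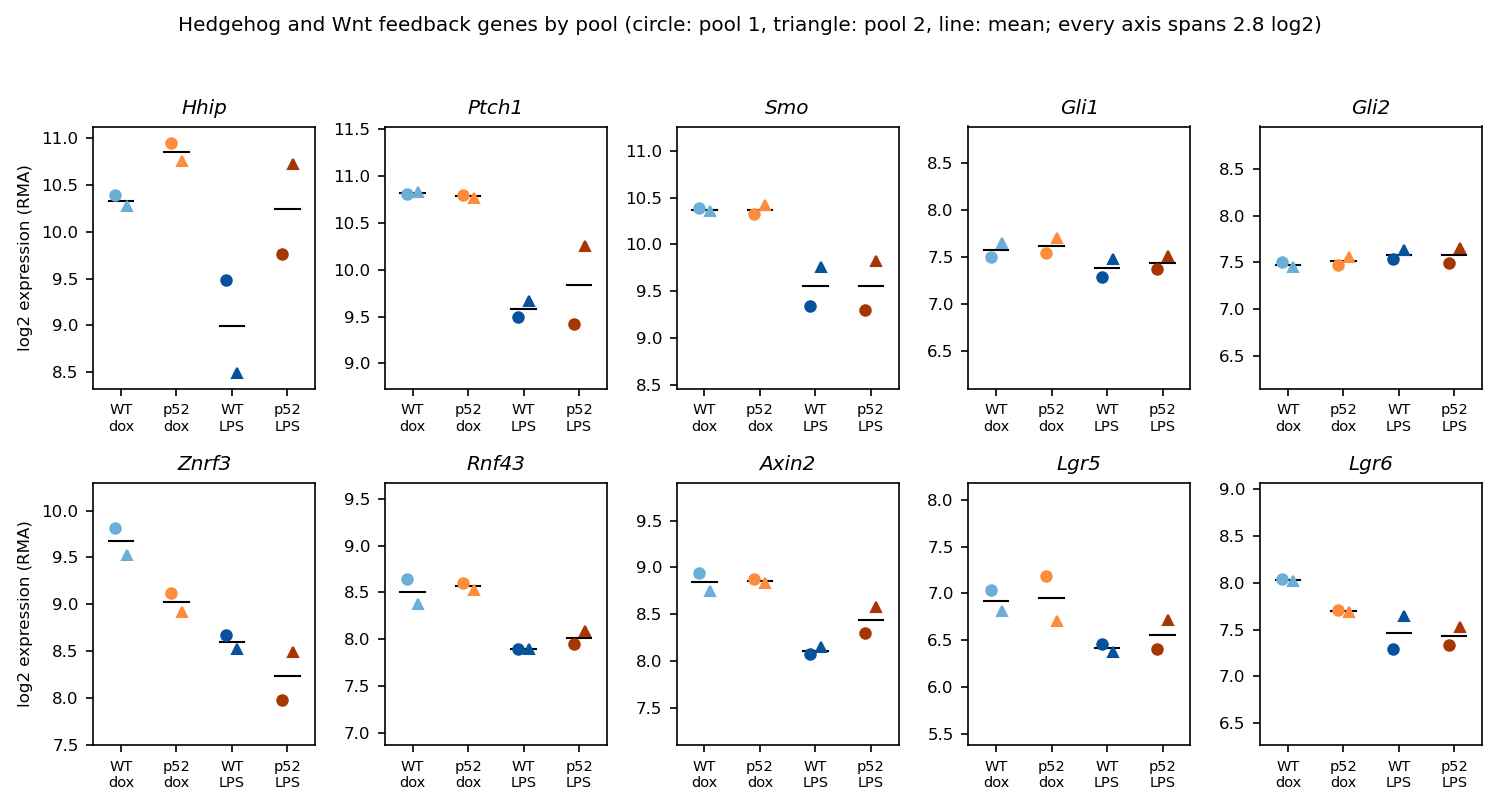
The log2 expression value (vertical axis) of each of the 10 genes in the 2 pools of the 4 groups, with circles for pool 1, triangles for pool 2 and a line at the group mean; each panel spans the same log2 range. Ptch1, Smo, Znrf3, Rnf43, Axin2 and Lgr6 have all LPS pools below all pools without LPS, and the pools of Hhip are far apart within both LPS groups.

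Ptch1, the Hedgehog receptor, had the largest fall of the 10 genes. Its log2 values were 10.81 and 10.83 in WT dox, 10.80 and 10.77 in CCSP-p52 dox, 9.49 and 9.67 in WT LPS, and 9.42 and 10.25 in CCSP-p52 LPS. The 4 pools without LPS were nearly level, and CCSP-p52 LPS pool 2 lay above the other LPS pools but below every pool without LPS. The logFC with LPS was -1.09 (standard error 0.17, 2.13-fold lower, adjusted p = 0.0021 from limma, n = 4 pools per LPS state), and it was -1.29 without CCSP-p52 LPS pool 2.

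Smo, the transducer that Ptch1 restrains, had values of 10.39 and 10.35 in WT dox, 10.32 and 10.42 in CCSP-p52 dox, 9.34 and 9.76 in WT LPS, and 9.30 and 9.82 in CCSP-p52 LPS. Both genotypes had nearly the same 2 values after LPS, with the second pool the higher in each. Smo fell by 0.82 on the log2 scale (standard error 0.13, 1.76-fold lower, adjusted p = 0.0027), and by 1.05 without both second LPS pools.

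Hhip, a membrane protein that binds and holds back Hedgehog ligands, varied most between pools of a group after LPS. Its values were 10.39 and 10.27 in WT dox, 10.95 and 10.76 in CCSP-p52 dox, 9.49 and 8.50 in WT LPS, and 9.77 and 10.72 in CCSP-p52 LPS. Within each genotype both LPS pools lay below both dox pools, but CCSP-p52 LPS pool 2 was above both WT dox pools. Hhip fell by 0.98 on the log2 scale with LPS (standard error 0.28, 1.97-fold lower, adjusted p = 0.029). The call was lost when any of 4 pools was left out: the first of WT dox (logFC -0.88), the second of WT dox (-0.93), the first of CCSP-p52 dox (-1.01) or the first of CCSP-p52 LPS (-0.86). It was kept at -0.70 without WT LPS pool 2 and at -1.24 without CCSP-p52 LPS pool 2.

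The Gli factors did not pass the test with LPS. Gli1, a Hedgehog-induced activator, had values of 7.50 and 7.65 in WT dox, 7.54 and 7.70 in CCSP-p52 dox, 7.29 and 7.48 in WT LPS, and 7.37 and 7.51 in CCSP-p52 LPS. In each genotype both LPS pools lay below both dox pools, and the logFC was -0.19 (standard error 0.08, 95% interval -0.37 to 0.001, adjusted p = 0.12). With the pool number as a replicate block the standard error was 0.06 and the adjusted p 0.038. Gli2, the main activator upstream of Gli1, ranged only from 7.45 to 7.65 over the 8 pools and had a logFC of 0.08 (standard error 0.07, interval -0.08 to 0.24, adjusted p = 0.41). The files hold no measure of background per probe set, so whether values this low still follow the amount of RNA was not tested.

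Among the Wnt feedback genes, Znrf3, a ubiquitin ligase that removes Frizzled receptors from the membrane, had values of 9.81 and 9.53 in WT dox, 9.12 and 8.92 in CCSP-p52 dox, 8.68 and 8.52 in WT LPS, and 7.98 and 8.49 in CCSP-p52 LPS. The groups fell into 4 successive levels that did not overlap, WT dox the highest and CCSP-p52 LPS the lowest. LPS lowered Znrf3 by a logFC of -0.93 (standard error 0.13, 1.90-fold lower, adjusted p = 0.0017). Its paralog Rnf43, a ligase of the same function, had values of 8.65 and 8.37 in WT dox, 8.60 and 8.53 in CCSP-p52 dox, 7.90 and 7.89 in WT LPS, and 7.95 and 8.09 in CCSP-p52 LPS. Rnf43 fell by 0.58 on the log2 scale (standard error 0.08, 1.50-fold lower, adjusted p = 0.0014), and its LPS pools differed little within or between genotypes.

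Axin2, the scaffold of the β-catenin destruction complex that serves as a readout of Wnt signaling, had values of 8.94 and 8.75 in WT dox, 8.87 and 8.84 in CCSP-p52 dox, 8.07 and 8.15 in WT LPS, and 8.30 and 8.57 in CCSP-p52 LPS. Both CCSP-p52 LPS pools lay between the WT LPS pools and the pools without LPS. Axin2 fell by 0.58 on the log2 scale (standard error 0.10, 1.49-fold lower, adjusted p = 0.0034).

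The R-spondin receptor genes had the smallest falls that passed the test. Lgr6 had values of 8.04 and 8.02 in WT dox, 7.71 and 7.68 in CCSP-p52 dox, 7.30 and 7.64 in WT LPS, and 7.33 and 7.52 in CCSP-p52 LPS. Its logFC was -0.42 (standard error 0.10, adjusted p = 0.016), and the margin between the highest LPS pool, WT LPS pool 2, and the lowest CCSP-p52 dox pool was small. The call of Lgr6 was lost without the first WT dox pool (logFC -0.38) or the second (-0.39). Lgr5, also a stem cell marker of intestine, had values of 7.04 and 6.81 in WT dox, 7.19 and 6.71 in CCSP-p52 dox, 6.46 and 6.37 in WT LPS, and 6.40 and 6.72 in CCSP-p52 LPS, with a logFC of -0.44 (standard error 0.13, adjusted p = 0.027). CCSP-p52 LPS pool 2 lay at the level of the lowest CCSP-p52 dox pool. The call of Lgr5 was lost without either pool of WT dox (-0.39 without the first and -0.48 without the second), without either pool of WT LPS (-0.45 and -0.41), and without the first pool of CCSP-p52 dox (-0.36) or of CCSP-p52 LPS (-0.39).

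Ptch1, Smo, Znrf3, Rnf43 and Axin2 passed with each array left out in turn and also at an adjusted p under 0.01. The calls of Hhip, Lgr5 and Lgr6 were lost without some single pools, with estimates that stayed negative. Over all probe sets, 4289 fell with all pools and 3043 to 5189 with each array left out. Only without CCSP-p52 LPS pool 2 was this number higher than with all pools. Without WT dox pool 1, or without WT dox pool 2, 5 of the 10 genes passed, beside 3118 and 3043 probe sets that fell. The part of the smaller number of arrays in the lost calls was not tested.

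Within WT mice alone, 7 of the 10 genes fell with LPS, against 13.7% of all probe sets, and within CCSP-p52 mice alone 2 fell, Znrf3 and Rnf43, against 5.17%. In WT, the logFC was -1.34 for Hhip (standard error 0.39, adjusted p = 0.049), -1.24 for Ptch1 (0.24, adjusted p = 0.017), -1.07 for Znrf3 (0.19, adjusted p = 0.013) and -0.73 for Axin2 (0.12, adjusted p = 0.011). In CCSP-p52 mice, it was -0.61 for Hhip (0.39, adjusted p = 0.35), -0.95 for Ptch1 (0.24, adjusted p = 0.056), -0.78 for Znrf3 (0.19, adjusted p = 0.049) and -0.42 for Axin2 (0.12, adjusted p = 0.078). The standard errors are the same in both genotypes, since 1 spread was fitted over the 4 groups. The estimate in CCSP-p52 mice was nearer 0 for all 10 genes, against 64.1% of all probe sets, and for 9 without WT LPS pool 2 (66.8%). It was nearer 0 for 5 of the 10 without CCSP-p52 LPS pool 2 (45.5%) and for 4 without both second LPS pools (50.9%). The numbers of genes that passed moved with single pools left out. In WT, fewer passed without any single WT pool or CCSP-p52 dox pool. In CCSP-p52 mice, more passed without CCSP-p52 LPS pool 2 and fewer without any other single pool. The group that loses a pool then has 1 pool, so no counts are given for these fits. With the replicate block 6 passed in WT and 4 in CCSP-p52 mice. The share of all probe sets that passed is not given for these alternatives, so the changes are not read as a result about the 10 genes.

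**Figure D2:**
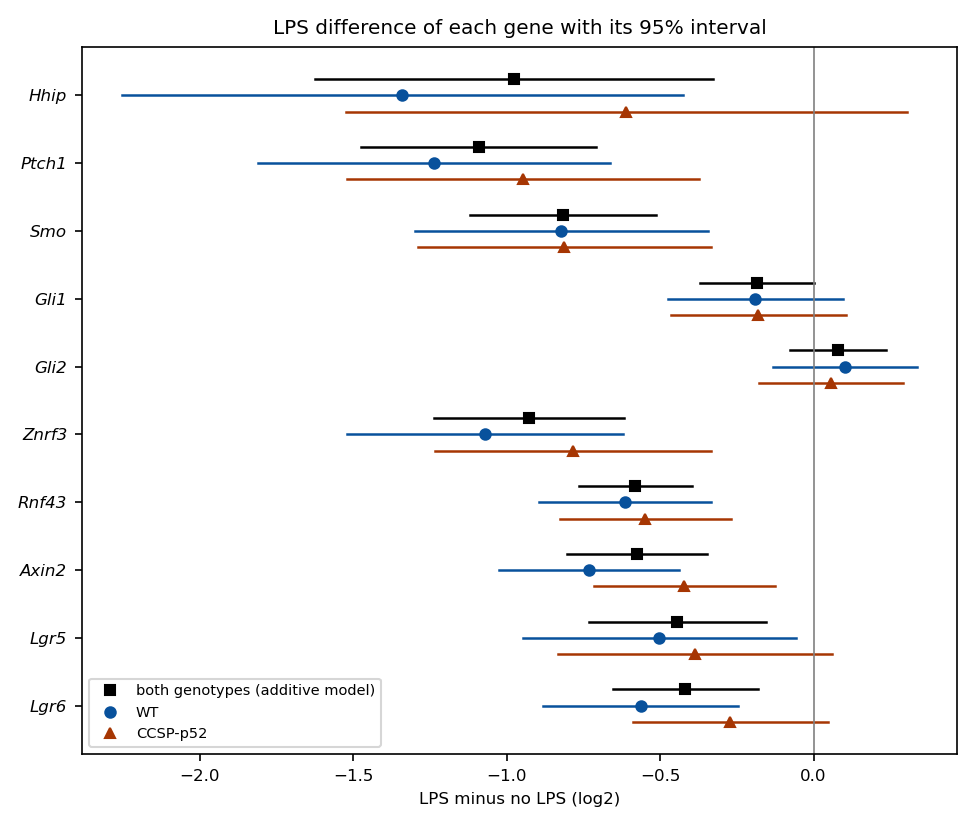
The LPS difference (horizontal axis, log2) of each gene in both genotypes together (squares), in WT (circles) and in CCSP-p52 mice (triangles), with bars for the 95% interval of the limma fit. With all pools, the CCSP-p52 estimates lie nearer 0 than the WT estimates, by least for Smo and by most for Hhip, and the intervals of both genotypes overlap for every gene.

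The difference between genotypes in the response to LPS, equal to the difference of the p52 effect with and without LPS, was tested directly. None of the 10 genes passed (limma interaction, lowest adjusted p = 0.91), and 0 had an unadjusted p under 0.05, against 5.04% of all probe sets, of which 0 passed adjustment. The estimate was 0.73 for Hhip (95% interval -0.56 to 2.02), 0.31 for Axin2 (-0.10 to 0.73), 0.29 for Lgr6 (-0.16 to 0.74), 0.29 for Ptch1 (-0.52 to 1.10) and 0.29 for Znrf3 (-0.35 to 0.92). For Smo it was 0.01 (-0.67 to 0.68). The interval of Hhip includes differences as large as its whole LPS fall, which were not detectable with this number of pools. The estimate of Hhip was 0.24 without WT LPS pool 2, 0.25 without CCSP-p52 LPS pool 2 and -0.24 without both. Without CCSP-p52 LPS pool 1 the estimate was 1.21 for Hhip, 0.70 for Ptch1, 0.27 for Smo, 0.54 for Znrf3 and 0.45 for Axin2. Without CCSP-p52 LPS pool 2 it was -0.12 for Ptch1, -0.25 for Smo, 0.03 for Znrf3, 0.17 for Axin2 and 0.20 for Lgr6, and without both second LPS pools it was -0.03, -0.04, -0.04, 0.21 and 0.37 for the same genes. The sign of the estimate was positive for 9 of the 10 genes with all pools and for 10 without WT LPS pool 2. It was positive for 4 without CCSP-p52 LPS pool 2 and for 3 without both second LPS pools. The median estimate over all probe sets was 0.01.

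With p52, Hhip was higher and Znrf3 lower, the values that brought them into the list. In the additive model at the study's cut-off (an absolute logFC of 0.41 or more with an unadjusted p up to 0.05), 1 of the 10 genes stood higher and 1 lower, where 0.245% of all probe sets stood higher and 0.0424% lower. The p52 logFC was 0.89 for Hhip (standard error 0.28) and -0.51 for Znrf3 (0.13), and the next in size were -0.19 for Lgr6 (0.10) and 0.17 for Axin2 (0.10), both outside the cut-off. Ptch1 (0.11, standard error 0.17), Rnf43 (0.09, 0.08), Lgr5 (0.08, 0.13), Gli1 (0.05, 0.08), Gli2 (0.02, 0.07) and Smo (0.00, 0.13) differed by less. The median over the 10 genes was 0.07, against 0.00 over all probe sets.

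Hhip stood above WT in both CCSP-p52 pools in each LPS state, by a logFC of 0.52 without LPS and 1.25 with LPS (standard error 0.39 for each). The additive difference of Hhip was 0.62 without WT LPS pool 2, the lowest pool and the pool with squamous and muscle markers. It was also 0.62 without CCSP-p52 LPS pool 2, the pool with more alveolar fibroblast marker signal, and 0.44 without both. Without LPS, where neither pool enters, the alveolar fibroblast list had means of 11.77 and 11.63 in WT and 11.76 and 11.70 in CCSP-p52 mice. The Hhip values of both genotypes did not overlap there, but the interval of the Hhip difference without LPS, -0.39 to 1.44, included 0. Hhip was also selected on the p52 comparison of these arrays. The part of fibroblast signal in the Hhip difference was not tested. Of the 16 marker lists, 6 had both CCSP-p52 dox pools below both WT dox pools, among them club cell (11.95 to 12.19 against 12.39 to 12.64), smooth muscle (10.03 to 10.18 against 10.23 to 10.37) and endothelium (12.41 to 12.43 against 12.52 to 12.55). In 2 lists they lay above, the mitotic list by most (8.01 in both against 7.23 and 7.46). For a single list or gene, random order of 2 pools against 2 separates them, in either direction, with a probability of 0.33. The part of these list differences in the p52 differences of the 10 genes was not tested.

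Znrf3 stood below WT in both CCSP-p52 pools in each LPS state, by a logFC of -0.65 without LPS and -0.36 with LPS (standard error 0.19). After LPS the margin was narrow, with WT LPS pool 2 at 8.52 and CCSP-p52 LPS pool 2 at 8.49. The additive difference was -0.57 without WT LPS pool 2, -0.64 without CCSP-p52 LPS pool 2 and -0.67 without both. Its paralog Rnf43 did not share the direction, with 0.06 without LPS and 0.12 with LPS (standard error 0.12), and its pools of both genotypes overlapped without LPS, while both CCSP-p52 LPS pools lay above both WT LPS pools.

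Lgr6 and Axin2 had the pools of both genotypes apart in 1 LPS state, as did Ptch1 without LPS and Rnf43 with LPS. Random order of 2 pools against 2 gives such a separation with a probability of 0.33. Without LPS, both CCSP-p52 pools of Lgr6 lay below both WT pools (logFC -0.33, standard error 0.13), and after LPS the pools overlapped (-0.04). Axin2 was level without LPS (0.01, standard error 0.12), and after LPS the WT pools were the lower 2 of the 4 (0.33). Its additive difference over both LPS states was 0.17 with all pools and 0.08 without CCSP-p52 LPS pool 2. The interaction test above covers both genes and did not pass for either. Ptch1, induced by the same pathway that Hhip holds back, had a logFC of -0.04 without LPS and 0.25 with LPS (standard error 0.24), the latter with the CCSP-p52 pools on either side of the WT pools.

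**Figure D3:**
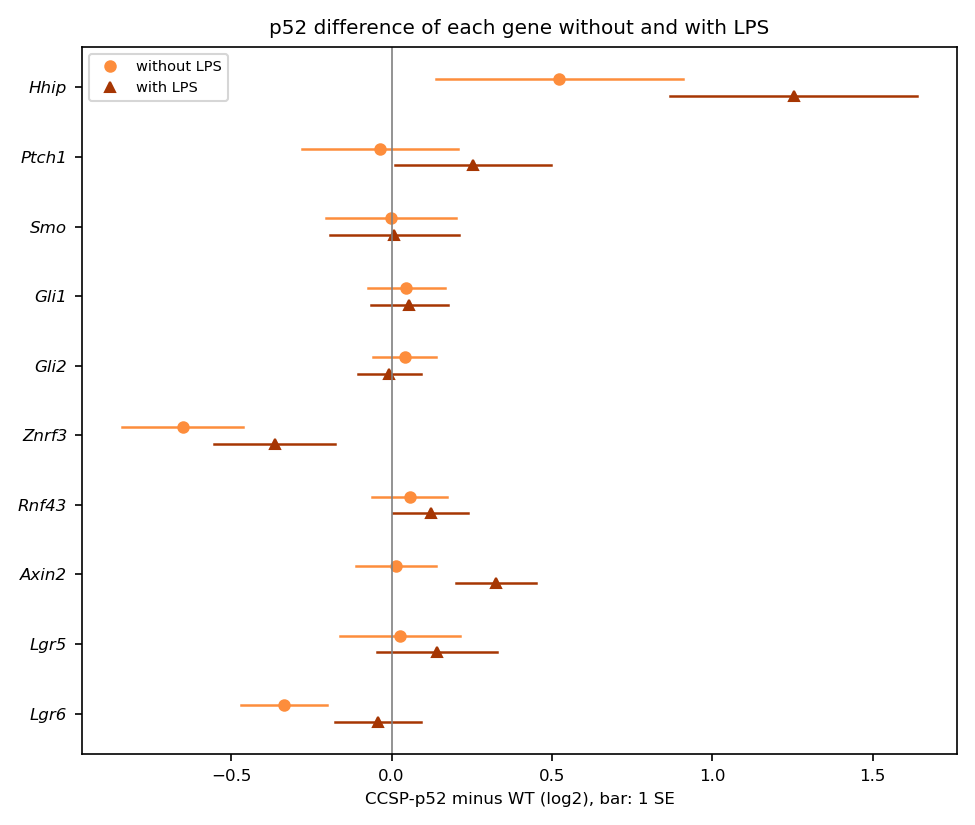
The p52 difference (CCSP-p52 minus WT, horizontal axis, log2) of each gene without LPS (circles) and with LPS (triangles), with bars of 1 standard error. Hhip lies to the right of 0 and Znrf3 to the left in both LPS states, Lgr6 to the left without LPS, and Axin2 to the right with LPS.

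The genes whose 8 values followed Hhip most closely, by Pearson correlation among 8677 probe sets with a standard deviation of at least 0.2, were Chia1 (r = 0.98), a chitinase, Crispld2 (0.97), a secreted protein of lung mesenchyme, Epha3 (0.96), an ephrin receptor, Rras2 (0.95), a Ras family GTPase, and Smim41 (0.94). All 5 had a negative LPS difference and a positive p52 difference, Chia1 of -0.70 and 0.57 and Epha3 of -0.67 and 0.48. For Znrf3 they were Mrtfb (0.97), a coactivator of serum response factor, Zfp770 (0.97), Agk (0.97), a mitochondrial lipid kinase, Slco5a1 (0.96) and Lonp2 (0.96), a peroxisomal protease. Their LPS differences lay between -0.33 and -0.83 and their p52 differences between -0.08 and -0.24. These correlations describe 8 points that share 2 factors and the same normalization. Genes picked by them follow the LPS and p52 directions of Hhip and of Znrf3 by construction.

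The rest of both pathways was read from 12 lists. Of 137 measured genes, 57 (41.6%) fell with LPS, 9 (6.57%) rose and 71 did not pass, beside 20.2% of all probe sets that fell and 13.5% that rose, and the median logFC was -0.24 against 0.01. These shares are the background for each list count that follows. Of the Hedgehog and cilium genes, 23 of 49 fell and 3 rose, and of the Wnt genes 34 of 89 fell and 6 rose, with Ccnd1 counted in both. None of the 137 stood at the study's p52 cut-off, beside 0.245% of all probe sets higher and 0.0424% lower, and their largest p52 difference was 0.35 in size.

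Among the Hedgehog ligands and release genes, 4 of 9 fell. Scube2, a secreted protein that helps release the lipid-bound ligand, had the largest fall of all pathway genes, from 11.26 to 11.67 in the pools without LPS to 8.36 to 9.33 in the LPS pools (logFC -2.71, standard error 0.21, 6.55-fold lower, adjusted p = 1.5e-04). Its relatives Scube1 (-1.11) and Scube3 (-0.43) fell as well, as did the ligand Shh (-0.33, adjusted p = 0.034). Of the co-receptors, 3 of 4 fell: Gpc3, a glypican that competes with Ptch1 for ligand (-1.25), Lrp2, an endocytic receptor (-0.78), and Boc, which presents ligand to Ptch1 (-0.69). CCSP-p52 LPS pool 2 was the highest LPS pool of this list of co-receptors, at a mean of 9.99 against 9.15 to 9.28 in the other LPS pools.

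Of the Hedgehog signal transducers, 4 of 12 fell, the kinase Dyrk2 (-0.58) and Evc (-0.55), Iqce (-0.33) and Evc2 (-0.32) of the complex that relays Smo activity at the cilium. Of the cilium assembly genes, on which Smo signaling depends, 5 of 10 fell and 1 rose, with Ift122 (-0.46), Kif3a (-0.38) and Ift172 (-0.58) lower and the motor subunit Kif3b higher (0.33). Of the Hedgehog responsive mesenchyme genes, 7 of 14 fell and 2 rose. The forkhead factor Foxf2 (-1.26, 2.39-fold lower, adjusted p = 8.4e-04), the T-box factor Tbx2 (-0.93) and the growth factor Bmp4 (-1.06) were among those that fell, and the factor Osr1 rose (0.49).

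Among Wnt ligands 3 of 19 fell, no larger a share than among all probe sets: Wnt2, a ligand of lung mesenchyme (-1.23), Wnt3a (-0.79) and Wnt10b (-0.52). None of the 4 R-spondins and Lgr4 passed the test, although the R-spondin receptors Lgr5 and Lgr6 fell. Of the receptors and co-receptors, 9 of 15 fell and 1 rose, with Fzd3 (-0.94), Fzd2 (-0.87), the co-receptor Lrp6 (-0.86) and Fzd7 (-0.66) lower. Znrf3 and Rnf43, whose products remove Frizzled proteins, fell in the same lungs.

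Of the secreted antagonists, 5 of 16 fell and 1 rose, beside 20.2% and 13.5% of all probe sets. Wif1, which binds Wnt ligands, went from 9.43 to 9.67 without LPS to 6.56 to 7.41 with LPS (logFC -2.54, standard error 0.16, 5.83-fold lower, adjusted p = 1.0e-04). Sfrp2 (-0.91) and Dkk3 (-0.54) fell, while Sfrp1 rose (0.94, 1.92-fold, adjusted p = 6.7e-04). Of the destruction complex and Dishevelled genes, 8 of 13 fell and none rose, with Apc2 (-0.61), Apc (-0.54), Btrc (-0.48) and Ctnnb1, the gene of β-catenin (-0.35), lower.

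The other Wnt target and feedback genes did not move one way. Of 13, 6 fell and 3 rose: Tnfrsf19 (-1.46) and the nuclear effector Lef1 (-0.79) fell, whereas Myc (1.49, 2.82-fold, adjusted p = 6.8e-05) and the adhesion receptor Cd44 (1.18) rose. Myc and Cd44 are also known as genes of inflammation and of leukocytes, and the neutrophil list rose in the same pools; its part in these values was not tested. Of 10 nuclear effectors, 4 fell and 1 rose, with the corepressors Tle2 (-0.74) and Tle1 (-0.58) and the coactivator Bcl9l (-0.43) lower and Tle3 higher (0.46).

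**Figure D4:**
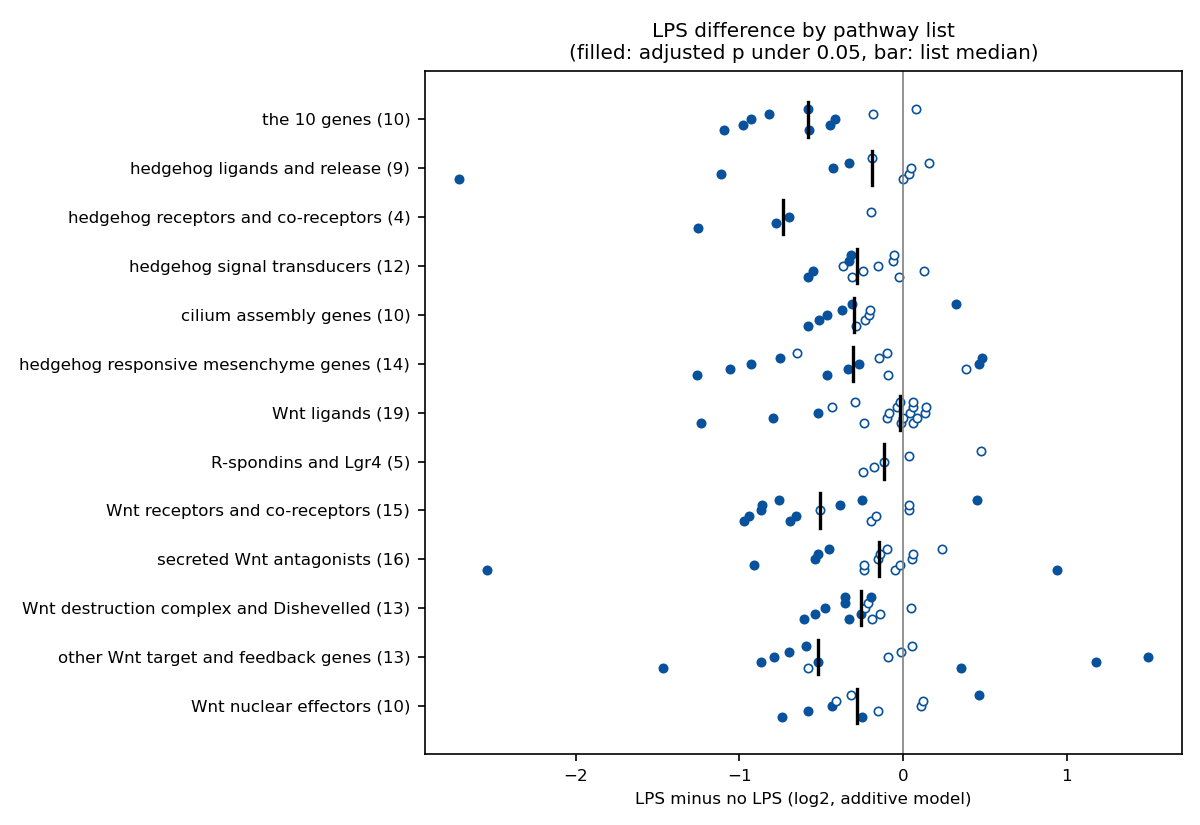
The LPS difference (horizontal axis, log2, additive model) of the 10 genes and of the genes of 12 pathway lists, with the number measured in brackets; filled points passed at an adjusted p under 0.05 and the bar is the list's median. The medians lie at or below 0 in every list, near 0 for the Wnt ligands, and Scube2 (-2.71), Wif1 (-2.54) and Myc (1.49) lie farthest out.

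Among the LPS pools, CCSP-p52 LPS pool 2 was the highest for Hhip, Ptch1, Smo, Gli1, Gli2, Rnf43, Axin2 and Lgr5. Znrf3 and Lgr6 were the exceptions, with WT LPS pool 1 and WT LPS pool 2 the highest. No share of all probe sets with this pool highest was taken beside these genes. CCSP-p52 LPS pool 2 was also the highest LPS pool of the alveolar fibroblast, endothelium (11.95 against 11.30 to 11.59) and alveolar type I cell lists (11.67 against 11.03 to 11.29). The same held for the alveolar type II cell (12.32 against 11.68 to 11.98), club cell and mesothelium lists. It was the lowest LPS pool of the neutrophil (10.88 against 10.96 to 11.56) and mitotic lists (8.52 against 8.97 to 9.35). Without CCSP-p52 LPS pool 2, the LPS logFC was -1.24 for Hhip and -1.29 for Ptch1. Without both second LPS pools it was -0.97 for Hhip, -1.34 for Ptch1 and -0.27 for Gli1. Each LPS group then has 1 pool, so the spread between LPS pools of a group does not enter and no calls are given.

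**Figure D5:**
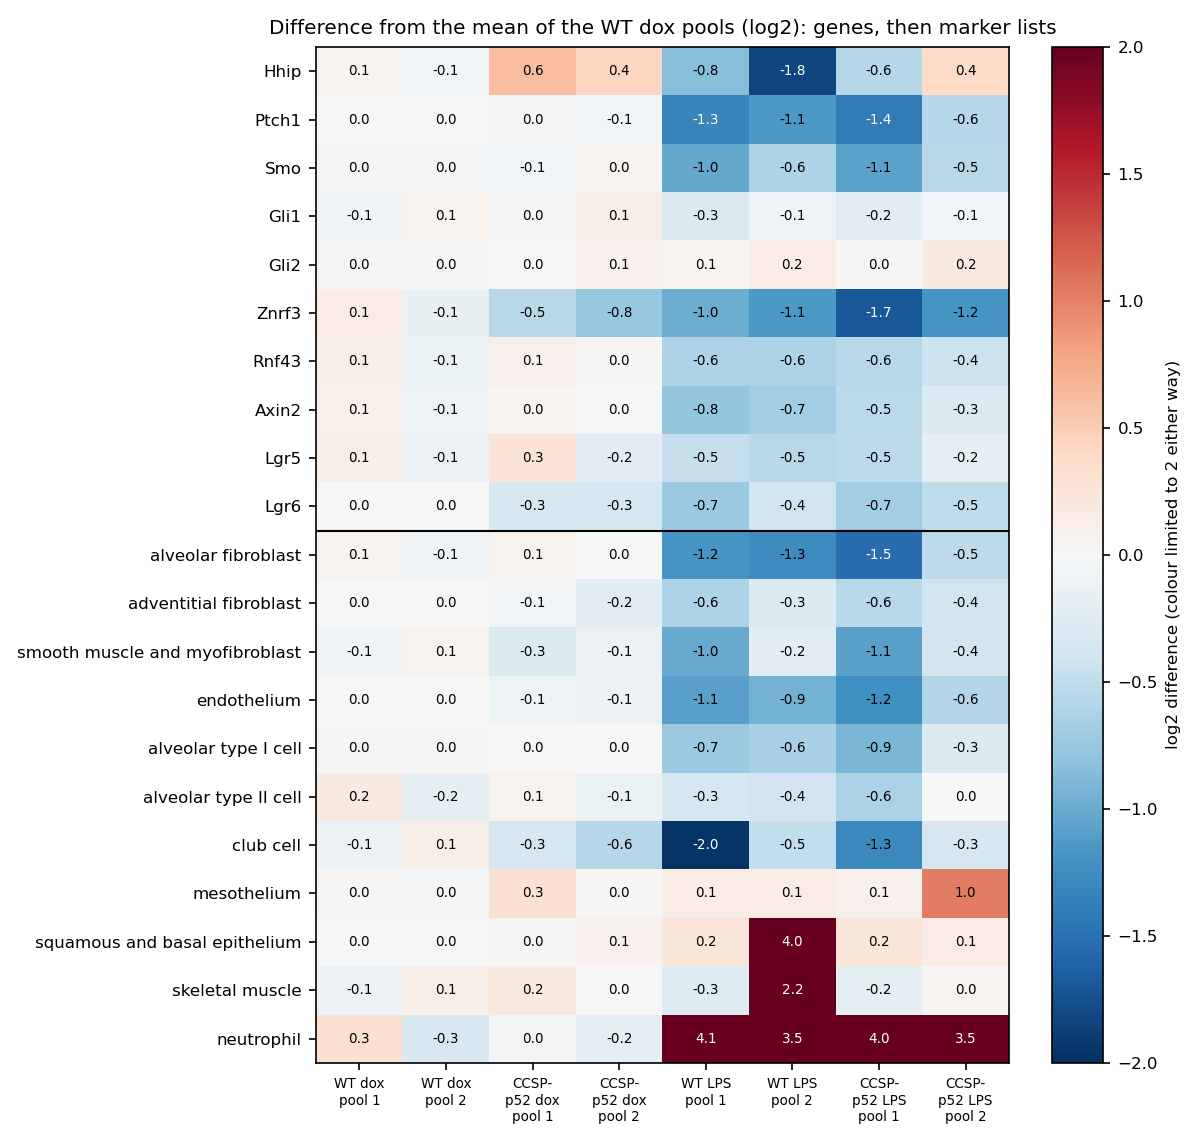
Each cell gives the log2 difference of a pool (columns) from the mean of the 2 WT dox pools, for the 10 genes (upper rows) and for the mean of each marker list (lower rows), with red for higher and blue for lower. The LPS pools are lower in most of the 10 genes and in the alveolar fibroblast, endothelium and type I cell lists. CCSP-p52 LPS pool 2 is less so than the others in these lists and in most of the genes. In the adventitial fibroblast list the LPS pools are also lower, WT LPS pool 2 the least. Squamous and skeletal muscle markers stand out in WT LPS pool 2.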

How the data were processed

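Whole lung RNA of 8 pools of mouse lungs was measured on Affymetrix Mouse Gene ST arrays. The authors normalized the scans with the Robust Multichip Average (package oligo in their methods, RMA and limma 3.20.8 in the submitters' processing notes), and the deposited values are log2 expression per probe set. This equalizes the distributions of the arrays, so an overall change in RNA is not seen. No genome build is given in the sources used here, and whether the platform's probe table is of the 1.0 version of the array named in the study's methods was not settled. Of 35556 probe sets, the 21218 with 1 gene symbol were tested. Genes without such a probe set, among them Cdon, Tcf7 and Dvl2, were not analysed here. For genes of the lists with several probe sets, the one with the highest mean was used.

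Comparisons were made with R 4.3.3 and limma 3.58.1, after tests on simulated arrays. The additive model of p52 and LPS over 8 arrays gave the LPS effect, called where p, adjusted by Benjamini-Hochberg across the 21218 probe sets, was under 0.05. A 4-group model gave the effects within each genotype and LPS state and the interaction. The 10 genes, the 12 pathway lists, the 16 marker lists and the comparisons were chosen with earlier results of these data known. Named were the 10 genes, up to 4 genes of each pathway list that passed with LPS, by p, up to 2 at the p52 cut-off, and the 5 genes most correlated with Hhip and with Znrf3. Precision is limited by the number of arrays, with a median standard error of 0.09 for the additive LPS effect and 0.13 within a genotype. With 2 pools against 2, the smallest p of an exact permutation test is 0.33. Pools with the same number deviated together, with a correlation of 0.14 to 0.35 between the deviations in each of 6 pairs of groups, and the number was therefore tried as a block, while the results given are from the fits without it unless the block is named. This rests on the values alone, and no source used here says what same-numbered pools share. Nothing says how the mice were divided between pools, so p-values measure the spread between these pools. Alternatives were all probe sets, a filter on low values, the 4-group average, other moderation, array weights, centring, renewed quantile normalization, the block, a threshold of 0.01 and each array left out, and, added after the data were seen, both second LPS pools left out.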

Additional observations from a re-analysis of the deposited data

How the results depend on the processing

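The falls of Ptch1, Smo, Znrf3, Rnf43 and Axin2 with LPS passed under every alternative that was run, and no LPS difference of the 10 genes changed sign with a call. Of 170 alternative LPS values of single genes, 12 lost the call, all of Hhip, Lgr5 or Lgr6 with 1 array left out. Gli1 gained it with the replicate block. With both second LPS pools left out each LPS group has 1 pool, so calls from that fit do not measure the spread between LPS pools. The count of genes that fell was 5 at an adjusted p under 0.01, where 2448 probe sets fell and 1566 rose. It was 5 to 8 with each array left out, where 3043 to 5189 probe sets fell. In WT mice it was 0 to 7 with each array left out. In CCSP-p52 mice it was 0 with all probe sets tested, 4 without the lowest 25% of probe sets by mean, 1 with array weights and 4 with the replicate block. It also moved with single arrays left out, as given above, where the groups are smaller. The cause was not tested otherwise. With the replicate block, 9 of the 10 genes fell, and no other call of the additive LPS effect or of the interaction changed. The interaction passed for none of the 10 genes under any alternative, and for 0 to 82 probe sets with each array left out, 82 without WT LPS pool 1.

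Probe sets at the p52 cut-off, used only as background, numbered 217 higher and 73 lower with all probe sets, 33 higher without the lowest 25%, 115 and 49 with array weights, 14 lower with median centring, 21 and 1 at an unadjusted p of at most 0.01, 80 and 28 without both second LPS pools, and 46 to 132 higher and 16 to 122 lower with each array left out. Other probe sets of the 10 genes could not be tried, since each has 1. Single pools were not tested as outliers within their groups of 2. Array weights were lowest, at 0.21, for CCSP-p52 LPS pool 2. They were highest, at 7.01, for CCSP-p52 dox pool 1, with the next highest 1.73, so the fit with array weights leans on that pool. Low probe sets such as those of Gli1, Gli2 and Lgr5 carry no measure of background.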
